A study of Mus musculus with 20 samples.

Results

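The collagen chain genes are the genes that encode the alpha chains of the collagens. They were taken as every gene on the array whose platform symbol reads Col, digits, a, digits, with the probe of highest mean standing for a gene that has several. Of 16593 genes measured, 37 met that rule, through 59 probes, and 12 of the 37 had more than 1 probe. They fall into 11 fibrillar chains, 6 basement membrane chains, 4 beaded filament chains, 2 short chain network members, 6 fibril-associated (FACIT) chains, 4 transmembrane chains, 2 multiplexins, the anchoring fibril chain Col7a1 and the chain Col26a1. Other collagen chain genes were not analysed here.

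Total RNA of mouse cells was hybridized to Illumina bead arrays, with 5 groups of 4 arrays. E14-mES and C57-mES are titled as mouse embryonic stem (ES) cells, self-renewing pluripotent cells grown in culture from the early embryo. GFPoct4 is called an ES cell only by its source and cell type fields. sFB-protein-iPS is labelled as an induced pluripotent stem cell (iPS), a somatic cell returned to an ES-like state. Its title also holds sFB, the abbreviation in FVB-sFB, and the word protein, which reads as the means of that return. This title names no strain. The title FVB-sFB names no ES cell and the series title speaks of skin fibroblasts, whereas their fields for source and cell type read embryonic stem cell. The title was followed here. The titles hold the names E14, C57, FVB and GFPoct4, which read as names of lines, strains or a reporter. Line or strain thus differs among these groups, and between the ES groups and FVB-sFB it cannot be told apart from cell type. Beyond these names the sources used here give no genotype, passage, use of feeder cells or number of clones behind a group. They also do not give the age of the animals or whether the 4 arrays of a group came from separate cultures. The p-values therefore measure the spread between arrays, which may be technical, and precision is limited by how few arrays there are.

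Collagens are trimers of alpha chains wound into a triple helix. Chains are hydroxylated and folded in the endoplasmic reticulum, secreted as procollagens, trimmed at their ends and crosslinked outside the cell. Fibrillar collagens give connective tissue its tensile strength and are the main secreted product of dermal fibroblasts. Type IV collagen instead forms the sheet-like network of basement membranes, the first extracellular matrix that the early mouse embryo lays down.

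Levels are log2 values after background correction and quantile normalization, so a difference of 1 is a doubling. A level can be compared between groups for 1 gene but not between genes, because probes differ in brightness. Receptor genes of the nose served as a set that these cells should not express: an array's background level was the 95th percentile over 1302 olfactory and vomeronasal receptor probes. It lay between 6.69 and 6.85. Median raw intensity per array ranged from 94.4 to 179, and 48.2% to 53.5% of probes lay above background. Within groups the arrays correlated at 0.981 to 0.9970 and no pair was identical. The FVB-sFB arrays split into 1 and 2 against 3 and 4: deviations from the group mean correlated at 0.521 and 0.386 within these pairs and at most -0.706 across them.

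The labels were checked against marker genes. All 8 markers of pluripotent cells were above background on every array of the 4 groups labelled as ES or iPS cells, and 1 of 8 was in FVB-sFB. Pou5f1 read 6.84, 6.69, 7.0 and 6.81 on the FVB-sFB arrays, against 13.40 or more on every other array. Nanog was below background and Sox2 close to it in FVB-sFB, at 6.27, 6.37, 6.37 and 6.51 and at 6.75, 6.70, 6.76 and 6.81. The 11 fibroblast markers had a summed level, in linear normalized intensity, of 61575 to 80044 on the FVB-sFB arrays. That sum was 2081 to 2480 for E14-mES, 8329 to 8987 for GFPoct4, 3353 to 3433 for C57-mES and 2690 to 2991 for sFB-protein-iPS. The array values therefore go with the title FVB-sFB and against the cell type field of those samples.

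Of the 37 chain genes, 25 were above background on all 4 arrays of at least 1 group. Another 5 (Col11a1, Col27a1, Col4a6, Col10a1 and Col14a1) were above it on some arrays only. The remaining 7 (Col4a3, Col4a4, Col6a6, Col8a2, Col9a3, Col19a1 and Col13a1) were above it on no array of the 20. These 7 include the chains of the kidney glomerular network, Col4a3 and Col4a4, and a chain of the cartilage FACIT type IX, Col9a3. FVB-sFB had 22 members above background on all its arrays, E14-mES and GFPoct4 11 each, C57-mES 10 and sFB-protein-iPS 8. The sFB-protein-iPS arrays also had the highest background levels, 6.83 to 6.85. Their shares of all probes above background were the lowest, 48.2% to 48.8%.

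**Figure D1:**
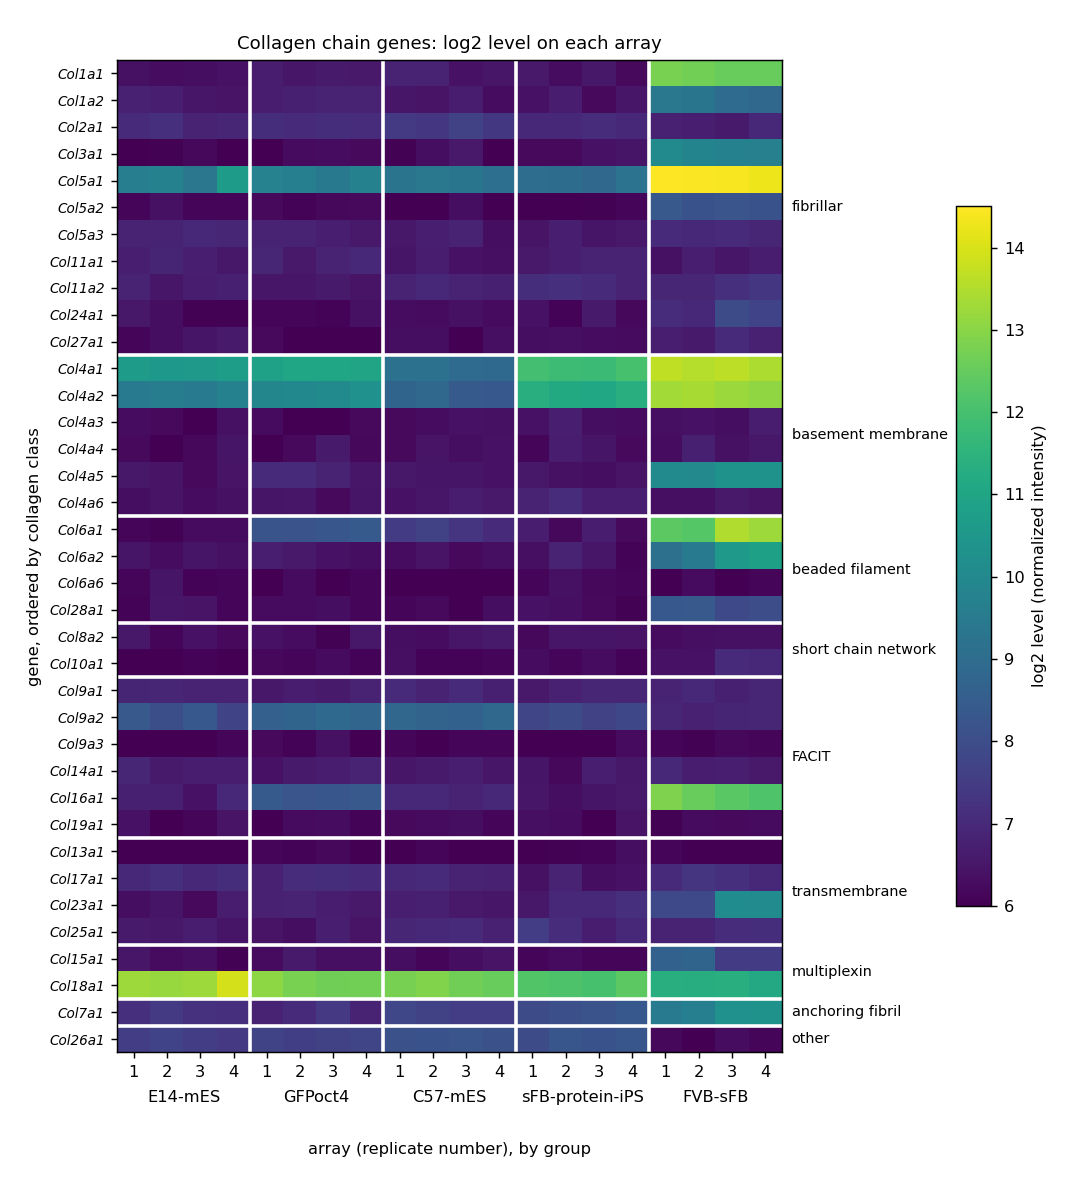
Log2 level of the 37 collagen chain genes (rows, ordered by class) on the 20 arrays (columns, by group and replicate number), where the colour bar gives the log2 normalized intensity. Colours should be read along a row. Col1a1, Col5a1, Col6a1 and Col16a1 stand out in FVB-sFB, Col4a1 and Col4a2 are graded across groups, and Col18a1 is lowest in FVB-sFB.

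The first comparison asked which collagen chains differ between the sFB-protein-iPS cells and the samples titled FVB-sFB. Of 37 chains, 16 were lower in sFB-protein-iPS, 1 was higher and 20 were not called, where a call needs an adjusted p under 0.05 and a log2 fold change of at least 1 in size. Over all genes tested 11.5% were called lower and 11.7% higher, so the 16 lower calls are a larger share of the members than of all genes, and the single higher call is a smaller one. The median log2 fold change of the 37 was -0.49, beside 0.03 for all genes. The second comparison set the mean of the 3 ES groups against the same FVB-sFB arrays. It called 16 chains lower, 3 higher and 18 neither way, with a median of -0.40 beside 0.01 for all genes, of which 11.1% were called lower and 11.8% higher. Both comparisons use the same FVB-sFB arrays, so they are not independent, and each gene is given with both values side by side. In cultures of mixed cells, fewer cells of a type and less RNA per cell cannot be told apart.

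The balance of calls over all genes depended on the scaling. Higher calls made up 50.4% of all calls in the first comparison, 33.9% when arrays were centred on their median in place of quantile normalization, and 16.4% in the deposited log2 values, where the median of all genes shifted to -0.41. In the second comparison these shares were 51.6%, 47.4% and 35.1%, with a median of -0.15 in the deposited values. All calls on collagen chains in both comparisons were kept in both settings, and the deposited values added Col17a1 as lower in the first.

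Among the fibrillar chains, 6 of 11 were lower in both comparisons, beside 11.5% and 11.1% of all genes. The class medians were -1.12 and -1.21. Col1a1 and Col1a2 encode the chains of type I collagen, the main collagen of skin, tendon and bone. Col1a1 read 6.38, 6.27, 6.32 and 6.40 on the E14-mES arrays, 6.69, 6.52, 6.63 and 6.58 on the GFPoct4 arrays and 6.82, 6.81, 6.41 and 6.5 on the C57-mES arrays. It read 6.58, 6.27, 6.55 and 6.21 on the sFB-protein-iPS arrays and 12.79, 12.70, 12.53 and 12.53 on the FVB-sFB arrays. Its level in FVB-sFB was far from the range of every other group, and the other 16 arrays all lay at or close to background. In sFB-protein-iPS Col1a1 was at least 55.7-fold lower than in FVB-sFB (log2 difference -6.24 ± 0.11 SE, with n = 4 arrays in each group, adjusted p = 4.73e-25), and in the ES groups at least 58.9-fold lower (-6.11 ± 0.09, 12 ES arrays, adjusted p = 7.38e-27). A fold is given as "at least" where an array of the dim group lay below background, whose level then replaces the value.

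Col1a2, the partner chain in the type I trimer, was also high in FVB-sFB alone. It read 6.78, 6.73, 6.51 and 6.46 on the E14-mES arrays, 6.67, 6.74, 6.80 and 6.85 on the GFPoct4 arrays and 6.51, 6.44, 6.64 and 6.27 on the C57-mES arrays. On the remaining arrays it read 6.40, 6.65, 6.22 and 6.5 on the sFB-protein-iPS arrays and 9.40, 9.30, 8.96 and 8.83 on the FVB-sFB arrays. The FVB-sFB arrays stood apart from all others, with arrays 1 and 2 above arrays 3 and 4. Col1a2 was at least 4.87-fold lower in sFB-protein-iPS (-2.68 ± 0.12, adjusted p = 2.51e-16) and at least 5.14-fold lower in the ES groups (-2.51 ± 0.10, adjusted p = 9.29e-18).

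Col3a1 encodes the chain of type III collagen, a homotrimer of elastic tissues that is laid down with type I in skin. The Col3a1 levels were 6.03, 6.06, 6.18 and 5.99 on the E14-mES arrays, 5.84, 6.25, 6.28 and 6.22 on the GFPoct4 arrays and 6.06, 6.30, 6.59 and 5.86 on the C57-mES arrays. They were 6.20, 6.20, 6.41 and 6.48 on the sFB-protein-iPS arrays and 10.03, 9.83, 9.73 and 9.69 on the FVB-sFB arrays. Every array outside FVB-sFB lay below background, and no array of FVB-sFB came near them. The differences were -3.50 ± 0.13 for sFB-protein-iPS (at least 7.9-fold lower, adjusted p = 3.59e-18) and -3.68 ± 0.11 for the ES groups (at least 8.43-fold lower, adjusted p = 1.02e-20). A further probe of Col3a1 gave -3.40 in the first comparison.

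The promoters of Col1a2 and Col3a1 are printed because these chains shared one pattern of levels. The sequences are RefSeq windows on build GRCm38.p6, reaching 250 bases upstream of the annotated start, Col1a2 at chr6:4505368-4505617 and Col3a1 at chr1:45311288-45311537, both on the plus strand and read 5′ to 3′. Capitals mark the motifs searched on both strands: TATAAA, the TATA box, CCAAT, the CCAAT box, and GGGCGG, the GC box.
Col1a2: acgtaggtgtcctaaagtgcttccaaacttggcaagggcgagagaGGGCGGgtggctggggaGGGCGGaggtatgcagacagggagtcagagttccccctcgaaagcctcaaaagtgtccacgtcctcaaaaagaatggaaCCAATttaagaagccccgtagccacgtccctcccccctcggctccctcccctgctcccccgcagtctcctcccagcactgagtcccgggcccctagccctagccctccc
Col3a1: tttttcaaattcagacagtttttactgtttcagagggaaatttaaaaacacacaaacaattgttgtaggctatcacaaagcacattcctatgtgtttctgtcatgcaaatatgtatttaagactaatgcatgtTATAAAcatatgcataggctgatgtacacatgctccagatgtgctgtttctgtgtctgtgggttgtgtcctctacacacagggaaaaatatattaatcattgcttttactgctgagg
The Col1a2 window holds GC boxes and a CCAAT box, whereas the Col3a1 window holds a TATA box and none of the others. Windows were found for 30 of the 37 genes, 33 windows in all, and Col1a1 has none in the table. TATAAA was found in 15.2% of the collagen windows and in 12.4% of all 32851 windows, CCAAT in 36.4% and 33.8%, and GGGCGG in 57.6% and 32.7%. The median GC content was 59.6% in the collagen windows and 52.4% in all windows. These matches describe the letters and show no binding.

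Type V collagen starts and limits the diameter of type I fibrils. Its chain gene Col5a1 differed from Col1a1 in that it was well above background on all 20 arrays. It read 9.64, 9.72, 9.38 and 10.68 on the E14-mES arrays, 9.77, 9.66, 9.44 and 9.74 on the GFPoct4 arrays and 9.27, 9.41, 9.32 and 9.10 on the C57-mES arrays. The other values were 9.03, 9.01, 8.88 and 9.23 on the sFB-protein-iPS arrays and 14.51, 14.45, 14.42 and 14.30 on the FVB-sFB arrays. FVB-sFB lay above every other array, and array 4 of E14-mES was the highest of the rest. Col5a1 was 41.8-fold lower in sFB-protein-iPS (-5.38 ± 0.17, adjusted p = 1.35e-19) and 28.4-fold lower in the ES groups (-4.83 ± 0.14, adjusted p = 1.15e-20). Its neighbour in the trimer, Col5a2, read 5.90, 6.03, 6.05 and 6.16 on the sFB-protein-iPS arrays and 8.37, 8.14, 8.25 and 8.14 on the FVB-sFB arrays. On the ES arrays Col5a2 lay between 5.71 and 6.37, below background throughout: the values were 6.14, 6.37, 6.14 and 6.10 on the E14-mES arrays, 6.21, 6.09, 6.18 and 6.21 on the GFPoct4 arrays and 5.71, 6.02, 6.32 and 5.76 on the C57-mES arrays. Col5a2 was at least 2.61-fold lower in sFB-protein-iPS (-2.19 ± 0.11, adjusted p = 2.26e-15) and at least 2.79-fold lower in the ES groups (-2.12 ± 0.09, adjusted p = 4.2e-17). Col3a1 and Col5a2 are neighbouring genes on chromosome 1, and both were high in FVB-sFB alone.

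Col24a1, a minor fibrillar chain, was called in both comparisons with a smaller difference that rested on part of the FVB-sFB arrays. It read 6.56, 6.31, 6.06 and 6.04 on the E14-mES arrays, 6.11, 6.14, 6.09 and 6.37 on the GFPoct4 arrays and 6.29, 6.25, 6.38 and 6.24 on the C57-mES arrays. The remaining arrays gave 6.43, 6.07, 6.62 and 6.18 on the sFB-protein-iPS arrays and 7.08, 6.98, 7.99 and 7.72 on the FVB-sFB arrays. Arrays 3 and 4 of FVB-sFB were higher than arrays 1 and 2, and all 4 lay above the other groups. Col24a1 was at least 1.52-fold lower in sFB-protein-iPS (-1.12 ± 0.17, adjusted p = 2.39e-06) and at least 1.62-fold lower in the ES groups (-1.21 ± 0.14, adjusted p = 1.99e-08). Without FVB-sFB arrays 3 and 4 the differences were -0.71 and -0.79, and without array 3 the first was -0.94, so the call was lost in each case. The mean of its 3 probes gave -0.72 and -0.82, also without a call.

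The other 5 fibrillar chains were not called in either comparison. Col2a1, the chain of cartilage fibrils, had means from 6.78 in FVB-sFB to 7.46 in C57-mES. Col5a3, Col11a1, Col11a2 and Col27a1 had group means between 6.01 and 7.09, at or near background. The 9 measured markers of chondrocytes and osteoblasts had 2 higher and 2 lower calls in each comparison. Over all genes 11.7% and 11.8% were called higher in these comparisons, and 11.5% and 11.1% lower. The summed levels of these markers were 1252 to 2127 over all arrays.

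**Figure D2:**
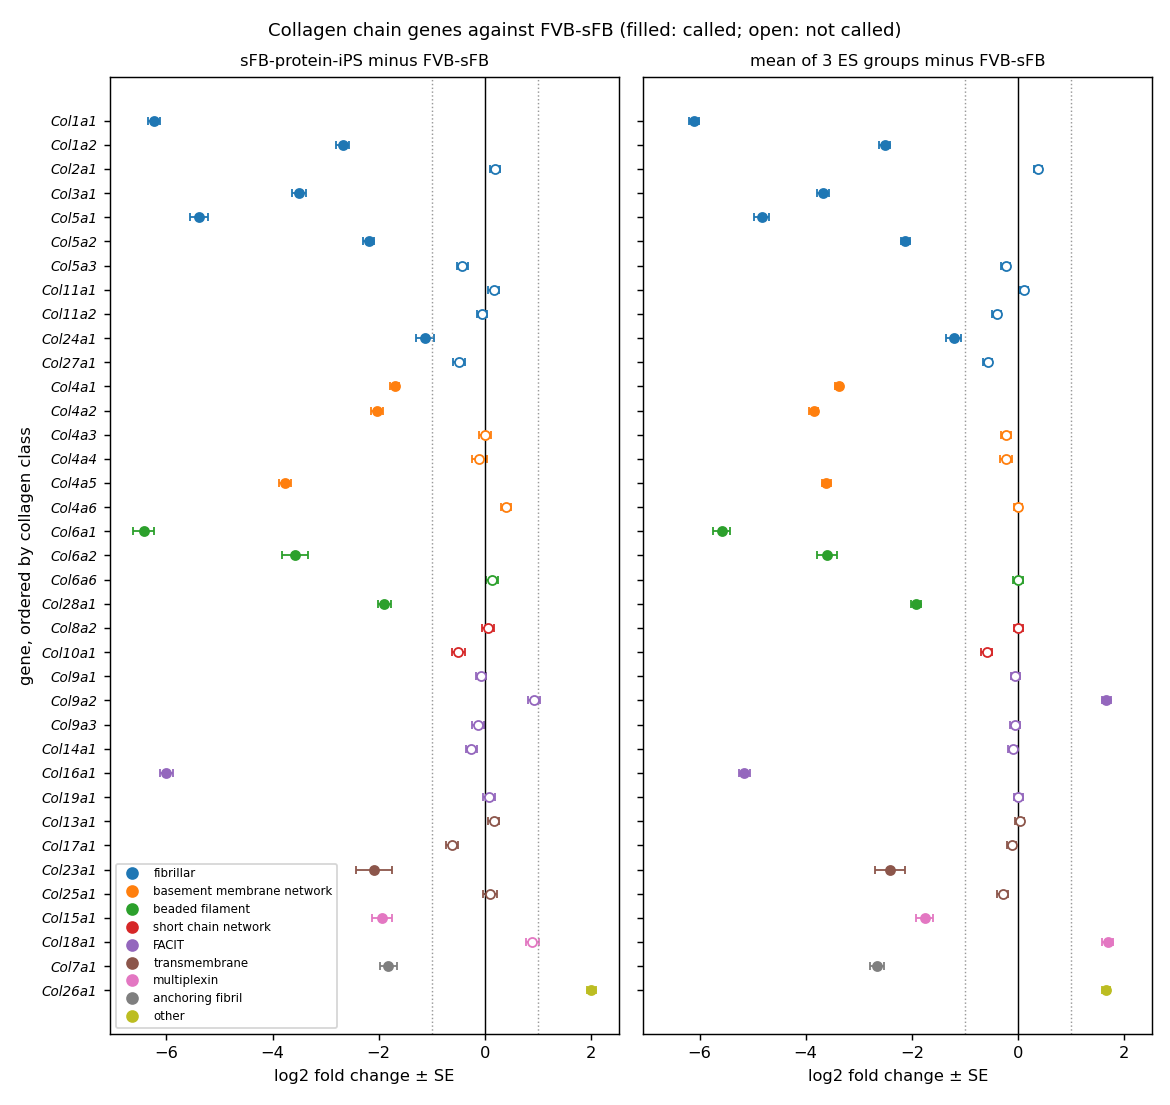
Log2 fold change with its standard error (x axis) of the 37 chain genes (y axis, by class) in sFB-protein-iPS (left) and in the mean of the 3 ES groups (right), each against FVB-sFB. Filled points were called, open points were not, dotted lines mark a log2 fold change of 1 in size, and Col26a1 is the only filled point to the right of 0 in the left panel.

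Of the 4 beaded filament chains, 3 were lower in both comparisons, beside 11.5% and 11.1% of all genes. The class medians were -2.74 and -2.76. Type VI collagen forms a fine microfibrillar network around cells, and Col6a1 and Col6a2 are neighbouring genes on chromosome 10. Col6a1 read 6.12, 6.05, 6.24 and 6.25 on the E14-mES arrays, 8.22, 8.17, 8.26 and 8.41 on the GFPoct4 arrays and 7.48, 7.63, 7.32 and 7.03 on the C57-mES arrays. Its other levels were 6.64, 6.17, 6.64 and 6.21 on the sFB-protein-iPS arrays and 12.36, 12.26, 13.5 and 13.27 on the FVB-sFB arrays. FVB-sFB was highest, GFPoct4 came next without overlap, C57-mES followed, and E14-mES and sFB-protein-iPS lay below background. Col6a1 was at least 64.4-fold lower in sFB-protein-iPS than in FVB-sFB (-6.43 ± 0.20, adjusted p = 7.09e-20) and at least 42-fold lower in the ES groups (-5.58 ± 0.16, adjusted p = 1.15e-20). Its 3 probes gave -6.43, -6.27 and -2.0 in the first comparison, and their mean gave -4.90.

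Col6a2 read 6.48, 6.27, 6.48 and 6.37 on the E14-mES arrays, 6.70, 6.57, 6.41 and 6.32 on the GFPoct4 arrays and 6.27, 6.44, 6.23 and 6.35 on the C57-mES arrays. Its other levels were 6.35, 6.80, 6.5 and 6.07 on the sFB-protein-iPS arrays and 9.14, 9.49, 10.58 and 10.83 on the FVB-sFB arrays. Only FVB-sFB was clearly above background, and there arrays 3 and 4 were higher than arrays 1 and 2. The differences were -3.58 ± 0.24 (at least 9-fold lower, adjusted p = 6.01e-13) and -3.60 ± 0.19 (at least 9.61-fold lower, adjusted p = 5.91e-15). Without FVB-sFB arrays 1 and 2 the values were -4.28 and -4.30. Leaving out arrays 3 and 4 gave -2.88 and -2.90, and all of these remained called. Col6a6, a further type VI chain, was above background on no array.

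Col28a1 encodes a chain that shares the von Willebrand factor A domains of type VI and is known from peripheral nerve. It read 6.09, 6.52, 6.45 and 6.13 on the E14-mES arrays, 6.26, 6.25, 6.31 and 6.11 on the GFPoct4 arrays and 6.14, 6.20, 6.01 and 6.31 on the C57-mES arrays. Other arrays read 6.41, 6.34, 6.23 and 6.06 on the sFB-protein-iPS arrays and 8.34, 8.39, 7.89 and 8.0 on the FVB-sFB arrays. FVB-sFB alone was above background, with arrays 1 and 2 slightly above 3 and 4. Col28a1 was at least 2.49-fold lower in sFB-protein-iPS (-1.89 ± 0.12, adjusted p = 2.62e-13) and at least 2.66-fold lower in the ES groups (-1.92 ± 0.10, adjusted p = 2.05e-15). Of 4 measured markers of Schwann cells and melanocytes, none was called in the first 3 comparisons. Shares over all genes in these were 11.7%, 11.8% and 1.52% called higher, and 11.5%, 11.1% and 1.82% lower. S100b, Tyr and Dct were above background on no array of any group.

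The FACIT class had medians of -0.10 and -0.05. Of its 6 chains 1 was lower in both comparisons, beside 11.5% and 11.1% of all genes. That chain was Col16a1, which is attached to fibrils in skin and to cell-adjacent matrix. It read 6.74, 6.75, 6.40 and 6.95 on the E14-mES arrays, 8.40, 8.23, 8.28 and 8.37 on the GFPoct4 arrays and 6.93, 6.98, 6.82 and 6.96 on the C57-mES arrays. On the other arrays it read 6.5, 6.32, 6.49 and 6.58 on the sFB-protein-iPS arrays and 12.87, 12.53, 12.34 and 12.17 on the FVB-sFB arrays. FVB-sFB was far above the rest, GFPoct4 was next and separate from the remaining groups, and those lay near background. Col16a1 was at least 49.8-fold lower in sFB-protein-iPS (-6.0 ± 0.12, adjusted p = 1.8e-23) and at least 35-fold lower in the ES groups (-5.16 ± 0.10, adjusted p = 3.58e-24).

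Col9a2, a chain of the cartilage FACIT type IX, went the other way. Col9a2 read 8.36, 8.05, 8.33 and 7.75 on the E14-mES arrays, 8.60, 8.74, 8.90 and 8.78 on the GFPoct4 arrays and 8.79, 8.71, 8.63 and 8.85 on the C57-mES arrays. It measured 7.77, 7.93, 7.66 and 7.83 on the sFB-protein-iPS arrays and 6.90, 6.79, 6.88 and 6.90 on the FVB-sFB arrays. FVB-sFB was lowest without overlap, and the sFB-protein-iPS arrays overlapped E14-mES but not GFPoct4 or C57-mES. In the ES groups Col9a2 was 3.19-fold higher than in FVB-sFB (1.67 ± 0.09, adjusted p = 7.68e-15). In sFB-protein-iPS the difference was 0.93 ± 0.11 (adjusted p = 5.26e-08), under the size needed for a call. The other type IX chains, Col9a1 and Col9a3, were not called, with Col9a1 near background and Col9a3 below it on all arrays. Col14a1 and Col19a1 were not called either.

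The transmembrane chains are membrane proteins whose collagenous part lies outside the cell. Of 4, only Col23a1 was called, and it rested most of all on the split within FVB-sFB. It read 6.30, 6.47, 6.22 and 6.64 on the E14-mES arrays, 6.77, 6.80, 6.65 and 6.58 on the GFPoct4 arrays and 6.71, 6.74, 6.59 and 6.5 on the C57-mES arrays. Its values elsewhere were 6.56, 6.96, 6.96 and 7.18 on the sFB-protein-iPS arrays and 7.88, 7.88, 10.12 and 10.09 on the FVB-sFB arrays. FVB-sFB arrays 3 and 4 were far above arrays 1 and 2, which in turn were above all other groups. Col23a1 was at least 4.02-fold lower in sFB-protein-iPS (-2.08 ± 0.34, adjusted p = 7.86e-06) and at least 4.73-fold lower in the ES groups (-2.41 ± 0.28, adjusted p = 2.27e-08). Without FVB-sFB arrays 3 and 4 the differences were -0.96, no longer called, and -1.30. Leaving out arrays 1 and 2 gave -3.19 and -3.53. Col17a1, the hemidesmosomal collagen of basal keratinocytes, had group means of 6.48 to 7.11, and Col13a1 and Col25a1 were not called. Of 7 keratinocyte markers none was called in the first 3 comparisons. Over all genes 11.7%, 11.8% and 1.52% were called higher in these, and 11.5%, 11.1% and 1.82% lower.

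The multiplexins Col15a1 and Col18a1 are proteoglycan collagens of basement membrane zones. In the ES groups they differed from FVB-sFB in opposite directions. Col15a1 read 6.51, 6.26, 6.36 and 6.06 on the E14-mES arrays, 6.24, 6.61, 6.34 and 6.35 on the GFPoct4 arrays and 6.33, 6.16, 6.32 and 6.44 on the C57-mES arrays. The other groups gave 6.14, 6.26, 6.11 and 6.15 on the sFB-protein-iPS arrays and 8.63, 8.73, 7.52 and 7.5 on the FVB-sFB arrays. Only FVB-sFB was above background, with arrays 1 and 2 well above 3 and 4. Col15a1 was at least 2.39-fold lower in sFB-protein-iPS (-1.93 ± 0.19, adjusted p = 2.54e-09) and at least 2.55-fold lower in the ES groups (-1.76 ± 0.16, adjusted p = 2.46e-10). Without FVB-sFB arrays 1 and 2 the differences were -1.35 and -1.18. Leaving out arrays 3 and 4 gave -2.51 and -2.35, still called.

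Col18a1, whose C-terminal fragment is endostatin, was above background on all 20 arrays and highest in the ES groups. It read 13.26, 13.19, 13.24 and 13.94 on the E14-mES arrays, 13.05, 12.78, 12.65 and 12.68 on the GFPoct4 arrays and 12.77, 12.88, 12.65 and 12.54 on the C57-mES arrays. It gave 12.20, 12.12, 12.01 and 12.37 on the sFB-protein-iPS arrays and 11.34, 11.31, 11.32 and 11.13 on the FVB-sFB arrays. The FVB-sFB arrays were the lowest of all, the sFB-protein-iPS arrays lay between them and the ES arrays without overlap, and E14-mES was highest. Col18a1 was 3.24-fold higher in the ES groups than in FVB-sFB (1.69 ± 0.11, adjusted p = 2.98e-13). In sFB-protein-iPS the difference from FVB-sFB was 0.90 ± 0.13 (adjusted p = 1.82e-06), which is under the size for a call. RefSeq has 2 promoter windows for Col18a1, of which the upstream one (GRCm38.p6, chr10:77166531-77166780, minus strand, with the same motifs in capitals on either strand) is shown because FVB-sFB was the lowest group for this chain and the highest for Col1a2 and Col3a1.
Col18a1: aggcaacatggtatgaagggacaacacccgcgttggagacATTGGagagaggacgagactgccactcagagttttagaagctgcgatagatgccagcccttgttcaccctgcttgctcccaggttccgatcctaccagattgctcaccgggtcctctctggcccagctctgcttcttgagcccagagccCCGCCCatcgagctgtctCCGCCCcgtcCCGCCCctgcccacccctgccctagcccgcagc
This window holds GC boxes and a CCAAT box, written here as CCGCCC and ATTGG on the strand shown, and no TATA box. The other Col18a1 window, chr10:77113706-77113955, holds none of these motifs. GC boxes were found in the Col1a2 window as well.

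Col7a1 encodes the anchoring fibril chain that ties the epidermal basement membrane to the dermis. It read 7.15, 7.43, 7.21 and 7.15 on the E14-mES arrays, 6.84, 7.06, 7.42 and 6.84 on the GFPoct4 arrays and 7.82, 7.68, 7.54 and 7.54 on the C57-mES arrays. Further values were 7.95, 8.07, 8.16 and 8.35 on the sFB-protein-iPS arrays and 9.51, 9.68, 10.31 and 10.33 on the FVB-sFB arrays. FVB-sFB was highest, sFB-protein-iPS was next and above every ES array, and C57-mES lay above the other ES groups. Col7a1 was 3.54-fold lower in sFB-protein-iPS than in FVB-sFB (-1.82 ± 0.16, adjusted p = 1.11e-10) and 6.28-fold lower in the ES groups (-2.65 ± 0.13, adjusted p = 6.25e-16). A dimmer probe gave -0.69 in the first comparison.

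Col26a1, which carries an EMI domain and was first described in testis and ovary, was the single chain called higher in both comparisons. Col26a1 read 7.55, 7.70, 7.55 and 7.42 on the E14-mES arrays, 7.74, 7.58, 7.66 and 7.78 on the GFPoct4 arrays and 8.11, 8.15, 8.25 and 8.10 on the C57-mES arrays. It was 7.93, 8.28, 8.14 and 8.26 on the sFB-protein-iPS arrays and 6.19, 6.0, 6.28 and 6.11 on the FVB-sFB arrays. FVB-sFB lay below background on every array and all 16 others lay above it. Col26a1 was at least 2.6-fold higher in sFB-protein-iPS (2.01 ± 0.09, adjusted p = 4.44e-16) and at least 2.04-fold higher in the ES groups (1.66 ± 0.08, adjusted p = 2.42e-16). In the deposited log2 values the first difference was 1.14.

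**Figure D3:**
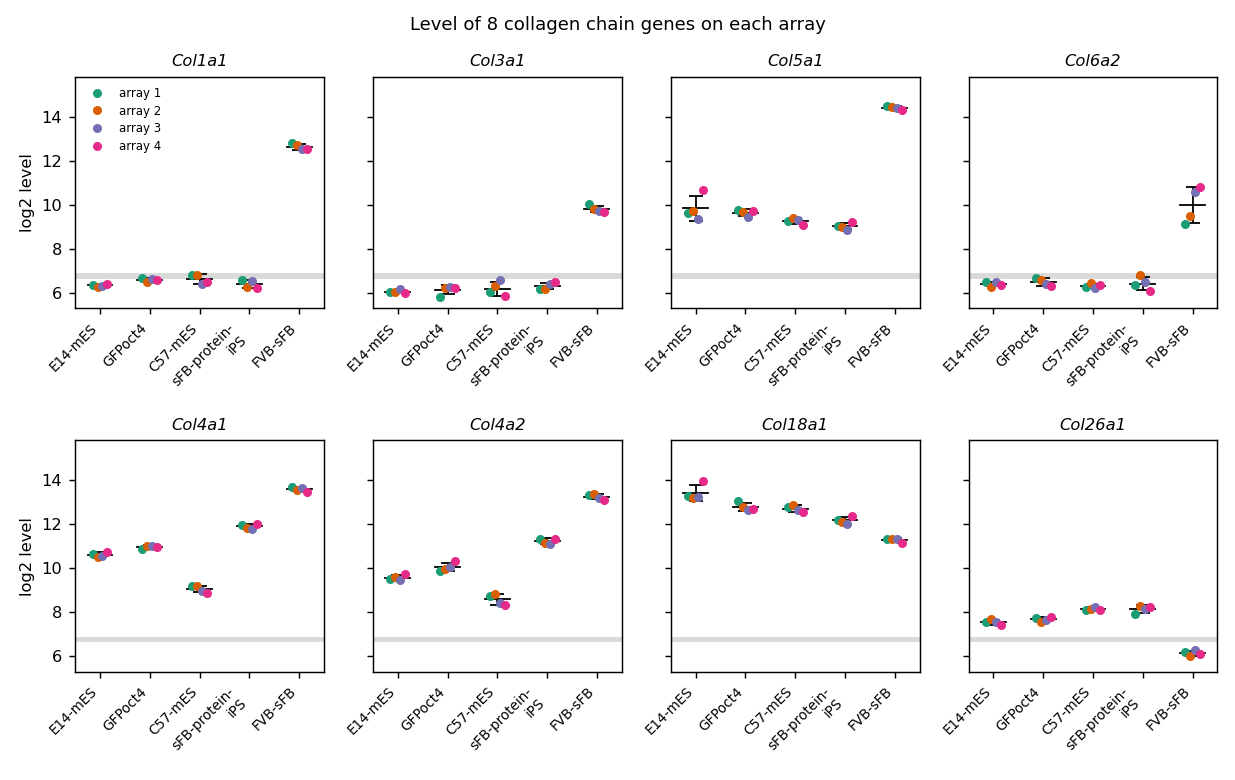
Log2 level (y axis) of 8 chain genes on each array, by group (x axis), with 1 coloured point per replicate number, the group mean and SD as bars, and the range of background levels of the 20 arrays as a grey band. Col1a1 and Col3a1 leave the band in FVB-sFB only, Col5a1 and Col4a1 are above it everywhere, and Col26a1 lies below it in FVB-sFB.

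Of the 6 basement membrane chains, 3 were lower than in FVB-sFB in both comparisons, beside 11.5% and 11.1% of all genes. The class medians were -0.90 and -1.81. Type IV collagen of most tissues is a trimer of the Col4a1 and Col4a2 chains. Their genes lie head to head on chromosome 8. On the reference strand the RefSeq start of Col4a1 lies 21 bases past that of Col4a2, so the annotated transcripts overlap at their starts. Short stretches of the windows around the 1 CCAAT box found in each are printed because the levels of this pair followed the same order of groups. They are RefSeq sequence on GRCm38.p6, Col4a1 at chr8:11312954-11312983 on the minus strand and Col4a2 at chr8:11312761-11312790 on the plus strand, each 30 bases long, and capitals mark CCAAT or its reverse complement ATTGG.
Col4a1: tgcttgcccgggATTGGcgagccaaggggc
Col4a2: ccgaggagctccCCAATttgttggcgctgc
Each gene thus has this motif on its own upstream side, which lies past the start of the other gene. The motif is held by 36.4% of the collagen windows.

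Col4a1 read 10.65, 10.52, 10.55 and 10.75 on the E14-mES arrays, 10.86, 11.02, 11.01 and 10.96 on the GFPoct4 arrays and 9.19, 9.18, 8.98 and 8.90 on the C57-mES arrays. It read 11.97, 11.83, 11.79 and 12.01 on the sFB-protein-iPS arrays and 13.70, 13.57, 13.65 and 13.47 on the FVB-sFB arrays. All groups were above background and no array overlapped another group's range, in the ascending order C57-mES, E14-mES, GFPoct4, sFB-protein-iPS and FVB-sFB. Col4a2 read 9.53, 9.60, 9.47 and 9.72 on the E14-mES arrays, 9.89, 9.98, 10.05 and 10.31 on the GFPoct4 arrays and 8.73, 8.85, 8.42 and 8.33 on the C57-mES arrays. It read 11.35, 11.15, 11.08 and 11.32 on the sFB-protein-iPS arrays and 13.32, 13.39, 13.21 and 13.10 on the FVB-sFB arrays. Its groups had the same order and again did not overlap. This separation is that of the normalized levels. In raw intensity array 4 of E14-mES read 3393 for Col4a1, above every GFPoct4 and sFB-protein-iPS array (up to 2025 and 3027). For Col4a2 it read 1715, above sFB-protein-iPS arrays 2 and 3 (1645 and 1369). That array also had the highest median raw intensity, 179. Between neighbours in the order of normalized levels, E14-mES and GFPoct4 did not differ by enough for a call. The differences were -0.35 ± 0.09 for Col4a1 (adjusted p = 0.00678) and -0.48 ± 0.12 for Col4a2 (adjusted p = 0.0034).

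Against FVB-sFB, Col4a1 was 3.25-fold lower in sFB-protein-iPS (-1.70 ± 0.09, adjusted p = 8.45e-15) and 10.4-fold lower in the ES groups (-3.38 ± 0.07, adjusted p = 4.57e-23). Col4a2 was 4.08-fold lower in sFB-protein-iPS (-2.03 ± 0.12, adjusted p = 2.97e-14) and 14.4-fold lower in the ES groups (-3.85 ± 0.09, adjusted p = 3.88e-22). Both chains thus lay between the ES groups and FVB-sFB in the iPS cells.

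The other network chains did not follow them. Col4a5 and Col4a6, neighbours on the X chromosome, encode chains of the network in kidney, smooth muscle and skin. Col4a5 read 6.55, 6.44, 6.23 and 6.44 on the E14-mES arrays, 7.06, 7.05, 6.81 and 6.51 on the GFPoct4 arrays and 6.56, 6.47, 6.47 and 6.41 on the C57-mES arrays. It read 6.55, 6.38, 6.31 and 6.44 on the sFB-protein-iPS arrays and 10.06, 10, 10.34 and 10.37 on the FVB-sFB arrays. It was high in FVB-sFB alone, and in GFPoct4 3 of the 4 arrays lay just above background. Col4a5 was at least 10.2-fold lower in sFB-protein-iPS (-3.77 ± 0.11, adjusted p = 5.39e-20) and at least 10.5-fold lower in the ES groups (-3.61 ± 0.09, adjusted p = 1.15e-21). Col4a6 was not called and stayed between 6.23 and 7.07. Col4a3 and Col4a4, neighbours on chromosome 1, were above background on no array.

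The iPS cells were then compared directly with the mean of the 3 ES groups. Of 37 chains 2 were called higher, 0 lower and 35 neither way (limma), while 1.52% of all genes were called higher and 1.82% lower. At an unadjusted p under 0.05, with no minimum size, 8 chains had a positive and 8 a negative difference, which is near the shares over all genes, 21.9% and 22.7%. The 2 were Col4a1, 3.21-fold higher in sFB-protein-iPS (1.68 ± 0.07, adjusted p = 3.74e-15), and Col4a2, 3.53-fold higher (1.82 ± 0.09, adjusted p = 7.06e-14). These errors and p-values measure the spread of arrays within groups and leave out the spread between the ES groups. The ES group means of Col4a1 ran from 9.06 to 10.96. The median of the 37 was 0.05, beside 0.01 for all genes. An adjusted p under 0.05 with a difference below 1 in size was found for chains that include Col6a1 (-0.85 ± 0.16, adjusted p = 0.00012), Col16a1 (-0.84 ± 0.10, adjusted p = 1.58e-07), Col18a1 (-0.79 ± 0.11, adjusted p = 1.75e-06), Col9a2 (-0.75 ± 0.09, adjusted p = 2.43e-07) and Col7a1 (0.83 ± 0.13, adjusted p = 8.48e-06). The fibrillar chains Col1a1, Col1a2 and Col3a1 had differences of -0.13 ± 0.09 (adjusted p = 0.276), -0.17 ± 0.10 (adjusted p = 0.181) and 0.19 ± 0.11 (adjusted p = 0.18). All 3 lay near or below background on both sides, so these values carry no fold.

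The balance of calls again depended on the scaling. Calls over all genes were 45.5% higher ones as reported, 15.2% with median centring and 4.52% in the deposited values, where the median of all genes was -0.28. Col4a1 and Col4a2 stayed called as higher in these settings. Median centring added Col18a1 and Col9a2 as lower, and the deposited values added these along with Col16a1, Col5a1 and Col6a1 as lower.

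The ES groups differed among themselves in some collagen chains, so sFB-protein-iPS was also compared with each of them, with its own arrays shared among these comparisons. The share of higher calls among all calls was 45.4% against E14-mES, 42.8% against GFPoct4 and 46.4% against C57-mES, but 11%, 17.3% and 24.3% with median centring and 3.11%, 8.67% and 9.96% in the deposited values. Against E14-mES, where 6.99% of all genes were called, 3 of 37 chains were called. Col4a1 was higher by 1.28 ± 0.09 (adjusted p = 2.06e-11), Col4a2 was higher by 1.64 ± 0.12 (adjusted p = 1.67e-11), and Col18a1 was lower at -1.23 ± 0.13 (adjusted p = 3.56e-08). The Col4a1 call was lost with median centring (0.89) and in the deposited values (0.58), where the Col4a2 call was lost too (0.89). Col5a1 was added as lower in both of these settings, and Col9a2 in the deposited values. The Col18a1 call was lost with the mean of its probes (-0.78).

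Against C57-mES 2 of 37 chains were called, beside 4.47% of all genes. Col4a1 was 7.14-fold higher in sFB-protein-iPS (2.84 ± 0.09, adjusted p = 4.23e-18) and Col4a2 6.25-fold higher (2.64 ± 0.12, adjusted p = 2.24e-15). C57-mES was the group lowest in both chains. Median centring added Col9a2 as lower, and the deposited values added Col9a2 and Col6a1 as lower.

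Against GFPoct4 4 of 37 were called, beside 6.29% of all genes. Col4a2 was higher by 1.17 ± 0.12 (adjusted p = 7.73e-09) and Col7a1 by 1.09 ± 0.16 (adjusted p = 2.87e-06), while Col4a1, at 0.94 ± 0.09 (adjusted p = 5.94e-09), was just short of a call. Both calls were lost with median centring and in the deposited values, where Col4a2 gave 0.92 and 0.77 and Col7a1 gave 0.74 and 0.48. Col7a1 was not called with the mean of its probes either (0.64). Median centring added Col9a2 as lower, and the deposited values added Col9a2 and Col5a1 as lower. Col6a1 was at least 2.69-fold lower in sFB-protein-iPS (-1.85 ± 0.20, adjusted p = 2.77e-08) and Col16a1 at least 2.79-fold lower (-1.85 ± 0.12, adjusted p = 6.31e-12).

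Among the ES groups themselves, Col4a1 was higher in E14-mES than in C57-mES by 1.56 ± 0.09 (adjusted p = 4.57e-13) and higher in GFPoct4 than in C57-mES by 1.90 ± 0.09 (adjusted p = 9.68e-15). Col4a2 was higher in GFPoct4 than in C57-mES by 1.48 ± 0.12 (adjusted p = 9.12e-11). Between E14-mES and C57-mES its difference of 1.00 ± 0.12 (adjusted p = 8.8e-08) fell just short of the size needed. With median centring and in the deposited values it was called as higher in E14-mES. Col16a1 was higher in GFPoct4 than in C57-mES by 1.40 ± 0.12 (adjusted p = 7e-10). E14-mES had less Col6a1 than C57-mES, by -1.20 ± 0.20 (adjusted p = 1.75e-05), a call lost with the mean of probes (-0.74) and in the deposited values (-0.87). The calls were 2 of 37 for E14-mES against C57-mES, 3 for GFPoct4 against C57-mES and 2 for E14-mES against GFPoct4, beside 7.3%, 7.92% and 1.96% of all genes. Higher calls were 56%, 56.2% and 38.8% of all calls in these comparisons, 73.3%, 61% and 56.3% with median centring and 80.9%, 53.6% and 74.7% in the deposited values. In the last of these, Col6a1 was at least 2.88-fold and Col16a1 at least 2.86-fold lower in E14-mES (-2.10 ± 0.20, adjusted p = 1.08e-08, and -1.61 ± 0.12, adjusted p = 2.39e-10).

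Genes of other cell types varied across the same groups. The fibroblast marker Dcn, a small proteoglycan that binds collagen fibrils, read 6.40, 6.27, 6.55 and 6.13 on the E14-mES arrays, 11.69, 11.65, 11.77 and 11.73 on the GFPoct4 arrays and 8.94, 8.71, 8.69 and 8.65 on the C57-mES arrays. Its levels were 6.88, 6.39, 6.75 and 6.44 on the sFB-protein-iPS arrays and 14.27, 14.14, 14.12 and 13.94 on the FVB-sFB arrays. GFPoct4 was therefore the ES group highest in Dcn, as it was in Col6a1 and Col16a1. Prrx1, a transcription factor of mesenchyme, read 7.68, 7.81, 7.54 and 7.91 in GFPoct4 and between 6.70 and 7.08 on the other ES arrays. In GFPoct4 7 of 11 fibroblast markers were above background on all arrays, while Pdgfrb, Dpt, Lum and Fap were above it on none, and Col1a1 and Col3a1 also lay below background there. The part of other cells in the Col6a1 and Col16a1 levels was not tested.

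Markers of endoderm were also higher in sFB-protein-iPS than in the ES groups. Parietal and primitive endoderm are early extraembryonic layers whose cells secrete type IV collagen and laminin in bulk. Of 10 markers 6 were higher in sFB-protein-iPS than in the ES mean (Gata6, Sox17, Sox7, Dab2, Srgn and Foxa2), beside 1.52% of all genes. The list's summed level, in linear normalized intensity, was 6942 to 7119 in sFB-protein-iPS, 1058 to 1135 in E14-mES, 2688 to 2890 in GFPoct4, 1361 to 1455 in C57-mES and 7178 to 8391 in FVB-sFB. Gata6, a transcription factor of primitive endoderm, read 7.20, 6.99, 7.20 and 7.41 on the E14-mES arrays, 8.64, 8.71, 8.66 and 8.54 on the GFPoct4 arrays and 7.65, 7.76, 7.82 and 7.73 on the C57-mES arrays. It read 11.57, 11.56, 11.54 and 11.37 on the sFB-protein-iPS arrays and 9.42, 9.14, 7.82 and 8.0 on the FVB-sFB arrays. The sFB-protein-iPS arrays were the highest in Gata6, and so it was for Sox17, at 9.55, 9.63, 9.54 and 9.67 against 6.95 or less on the ES arrays. Thbd was above background on no sFB-protein-iPS array. In E14-mES, where Col4a1 was higher than in C57-mES, Sox7 was lower at -1.01 ± 0.08 (adjusted p = 3.09e-10). Gata6 had a difference of -0.54 ± 0.22 in that comparison (adjusted p = 0.0517). GFPoct4, the ES group highest in Col4a1 and Col4a2, also had the highest list sum among the ES groups. Compared with GFPoct4, E14-mES was lower in 4 of the 10 markers (Gata6, Sox7, Dab2 and Pdgfra) and higher in 0. Over all genes 1.96% were called there. GFPoct4 was higher than C57-mES in 2 of the 10 (Dab2 and Pdgfra) and lower in 0, beside 7.92% of all genes called. Neither of these is particular to endoderm here. Pdgfra is also on the fibroblast list. In the ES mean Dab2, Pdgfra and Thbd were called lower than in FVB-sFB and Sox7 higher, beside 11.1% and 11.8% of all genes. The part of endoderm or of other cells in the type IV result was not tested.

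**Figure D4:**
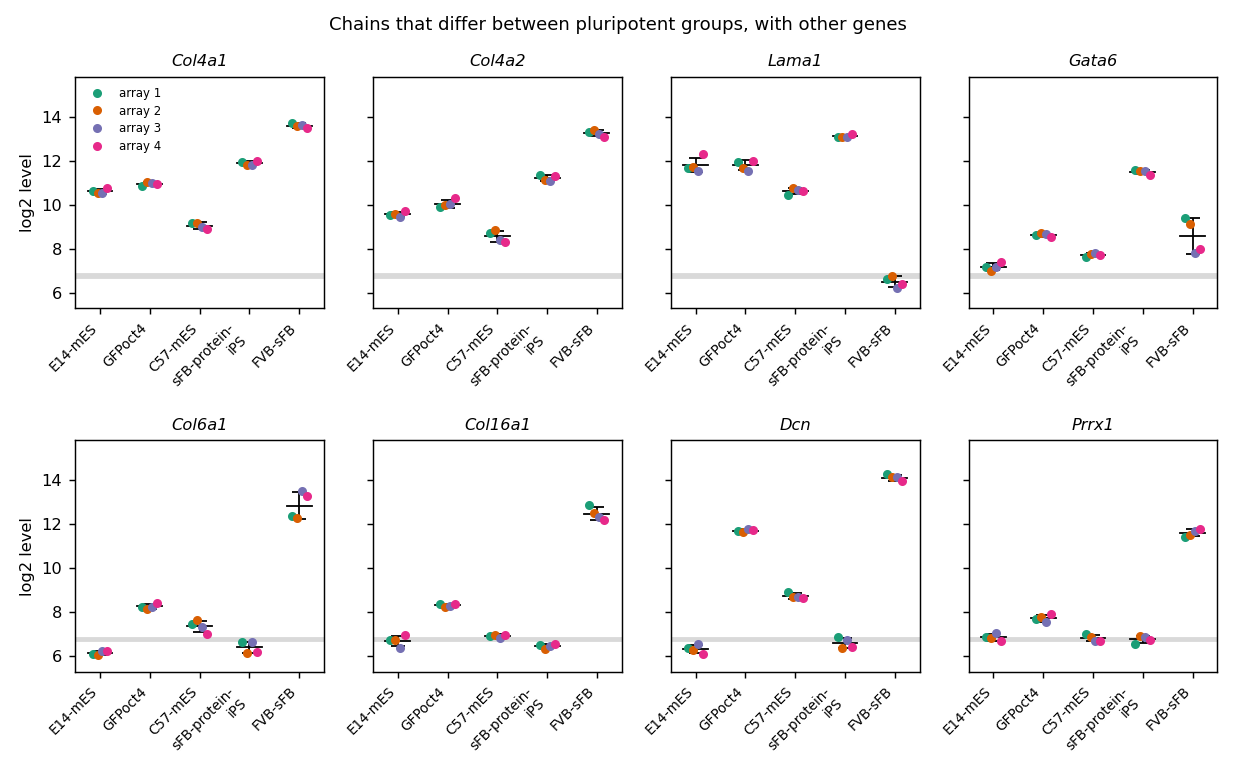
Log2 level (y axis) on each array by group (x axis) of 4 chain genes that differ among the pluripotent groups and of 4 other genes, with points, bars and grey band for replicate number, mean and SD, and range of background levels. In the top row sFB-protein-iPS lies above the 3 ES groups, and in the bottom row GFPoct4 lies above the other ES groups and sFB-protein-iPS.

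The genes that make a collagen out of its chains were read from 4 lists. Of 18 measured genes for folding and modification in the endoplasmic reticulum, 10 were called lower in sFB-protein-iPS than in FVB-sFB, with a median of -1.22, beside 11.5% of all genes called lower. The prolyl 3-hydroxylase family gene P3h3 was at least 11.7-fold lower (-3.56 ± 0.09, adjusted p = 2.77e-21). Fkbp14, a prolyl isomerase, was lower at -3.02 ± 0.09, and P3h4 at -2.63 ± 0.10. P4ha1, a prolyl 4-hydroxylase subunit, was at least 4.76-fold lower (-2.32 ± 0.16). In the ES groups 10 were lower as well, with a median of -1.40, beside 11.1% of all genes. The largest differences were those of P3h3, at least 11.6-fold lower (-3.56 ± 0.08), Fkbp14 at -3.48 ± 0.07 and Serpinh1, the collagen chaperone, at -3.38 ± 0.08. Serpinh1 read 7.97, 8.0, 8.17 and 7.70 on the E14-mES arrays, 8.56, 8.66, 8.75 and 8.73 on the GFPoct4 arrays and 7.28, 7.11, 7.22 and 7.10 on the C57-mES arrays. It read 9.35, 9.28, 9.52 and 9.43 on the sFB-protein-iPS arrays and 11.19, 11.15, 11.41 and 11.54 on the FVB-sFB arrays. Like Col4a1 and Col4a2, it lay between the ES groups and FVB-sFB in sFB-protein-iPS without overlap. Serpinh1 (1.46 ± 0.08, adjusted p = 5.82e-13) and the prolyl 4-hydroxylase subunit P4ha2 (1.04 ± 0.07, adjusted p = 4.78e-12) were the 2 of 18 called higher in sFB-protein-iPS than in the ES mean. Of all genes 1.52% were called higher in that comparison.

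Of 12 measured genes for propeptide cleavage and crosslinking, 7 were lower and 1 higher in sFB-protein-iPS than in FVB-sFB, with a median of -1.21, and 7 were lower in the ES groups, with a median of -1.17, against the same shares of all genes. The lysyl oxidases crosslink collagen. Lox was at least 425-fold lower in sFB-protein-iPS (-9.16 ± 0.10) and at least 294-fold lower in the ES groups (-8.33 ± 0.08). Loxl1 was lower at -6.04 ± 0.08 and -5.38 ± 0.07 in these comparisons. Loxl2 was at least 16.3-fold (-4.03 ± 0.10) and at least 13.4-fold lower (-3.75 ± 0.08). The C-proteinase gene Bmp1 was lower at -3.98 ± 0.09 and -4.37 ± 0.08. Between sFB-protein-iPS and the ES mean 0 of the 12 were called (limma), while at an unadjusted p under 0.05 3 had a positive and 4 a negative difference, against 21.9% and 22.7% of all genes.

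Of 8 measured collagen receptors, 6 were lower in sFB-protein-iPS and 5 in the ES groups than in FVB-sFB, beside 11.5% and 11.1% of all genes. The medians were -1.66 and -1.80. The integrin chain Itga11, which pairs with Itgb1 to bind fibrillar collagen, was at least 146-fold lower in sFB-protein-iPS (-7.71 ± 0.17) and at least 156-fold lower in the ES groups (-7.56 ± 0.14). Itga2, a further collagen-binding chain, was at least 2.69-fold (-2.01 ± 0.13) and at least 2.88-fold lower (-1.98 ± 0.10). The discoidin domain receptor gene Ddr2 was at least 2.77-fold (-2.0 ± 0.10) and at least 2.96-fold lower (-2.11 ± 0.08). Itgb1 was lower at -1.49 ± 0.11 and -2.87 ± 0.09, and it was higher in sFB-protein-iPS than in the ES mean by 1.38 ± 0.09 (adjusted p = 9.38e-12). Ddr1, the other discoidin domain receptor gene, was lower in that comparison at -1.20 ± 0.10 (adjusted p = 6.26e-10).

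Of 10 measured partners of type IV collagen in basement membranes, 3 were higher and 3 lower in sFB-protein-iPS than in FVB-sFB. The ES groups also had 3 higher and 3 lower. Over all genes 11.7% and 11.8% were called higher in these comparisons, and 11.5% and 11.1% lower. The medians of the 10 were 0.24 and 0.11, beside 0.03 and 0.01 for all genes. Lama1, the laminin alpha chain of the early embryo, read 11.67, 11.71, 11.56 and 12.31 on the E14-mES arrays, 11.97, 11.68, 11.54 and 12 on the GFPoct4 arrays and 10.44, 10.77, 10.67 and 10.65 on the C57-mES arrays. It read 13.09, 13.08, 13.10 and 13.23 on the sFB-protein-iPS arrays and 6.65, 6.78, 6.21 and 6.43 on the FVB-sFB arrays. FVB-sFB lay near or below background, C57-mES was the lowest ES group, and sFB-protein-iPS was above every ES array. Lama1 was at least 81.3-fold higher in sFB-protein-iPS than in FVB-sFB (6.60 ± 0.14), and higher than in the ES mean by 1.71 ± 0.12 (adjusted p = 1.19e-11). Sparc, a collagen-binding matrix protein, was lower than in FVB-sFB at -2.80 ± 0.14 in sFB-protein-iPS and -3.31 ± 0.11 in the ES groups, whereas the nidogen Nid2 was higher by 2.44 ± 0.14 and 2.22 ± 0.12. Lama1 alone of the 10 was called in the direct comparison of sFB-protein-iPS with the ES mean. Of all genes 1.52% were called higher and 1.82% lower in that comparison.

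Further lists stood for other cells that a culture can hold. The summed level of 7 smooth muscle markers was 62791 to 75133 in FVB-sFB and 1408 to 4538 on all other arrays. Of these markers 4 were lower and 1 higher in each of the first 2 comparisons. Over all genes 11.5% and 11.1% were called lower there, and 11.7% and 11.8% higher. The 4 measured macrophage markers summed to 2799 to 3092 in FVB-sFB, where Ptprc and Adgre1 were above background on no array, and to 279 to 345 elsewhere. The 7 endothelial markers summed to 787 to 1204 in FVB-sFB and 1388 to 2611 elsewhere, with Cdh5 above background on no array. Their part in the collagen levels was not tested.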

How the data were processed

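Gene expression was measured in 20 samples of 5 titled groups. The authors deposited a table of probe intensity on a linear scale with no normalization, exported with BeadStudio per the submitters' processing notes, version not given in the sources used here. A deposited table of log2 values is the log2 of those intensities to within 5e-09, so it was not normalized between arrays. With R 4.3.3 and limma 3.58.1, intensities were background-corrected (normexp, offset 50), quantile-normalized and put on the log2 scale. Of 25697 probes 23978 had 1 gene symbol and 1719 none. One linear model of the 5 groups was fitted to all 16593 genes with Benjamini-Hochberg adjustment over all of them, and was tested on simulated data. No detection p-values, slides or dates came with the tables used here, so no slide block was fitted.

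The collagen genes and the pathway and marker lists were chosen with earlier results of these data known. By the rule for named genes, called chains and Col1a1, Col1a2, Col3a1, Col4a1 and Col4a2 are given with every array, up to 4 called genes come from each pathway list, and markers are given as counts with the defining ones. Dcn, Serpinh1 and Lama1 were chosen for values by array after these were seen. Of 40 pairs of arrays sharing a replicate number across groups, 5 had deviations correlated above 0.1 (range -0.33 to 0.246), so samples were not paired by number. Errors are SE for differences and SD in the plots. Alternatives changed the background correction, offset, normalization, probe rule, dim-probe filter, replicate block and arrays included.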

Additional observations from a re-analysis of the deposited data

Results flagged for a closer look

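For groups of 4 arrays, a single array far from the other 3 was looked for in 62 sets of values, of which chance gives about 1 in 20. Col2a1 in sFB-protein-iPS read 7.07 on array 3, and 6.93 to 6.95 on the other arrays. Col18a1 in E14-mES read 13.94 on array 4, against 13.19 to 13.26 on the rest of that group. That array also had the highest median raw intensity of all arrays, 179. It read 10.68 for Col5a1, against 9.38 to 9.72 on the rest of E14-mES. In FVB-sFB Col18a1 read 11.13 on array 4 and 11.31 to 11.34 on the others.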

How the results depend on the processing

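Of 173 alternative counts of called chains 167 stayed within 1.5 times the reported count, whichever chains were called. A count could stay while its chains changed. For sFB-protein-iPS in the deposited values, 3 calls against E14-mES stayed 3 and 4 against GFPoct4 stayed 4, but all were then lower. Col4a1 and Col4a2 were lost in the first and Col4a2 and Col7a1 in the second, and Col5a1 and Col9a2 were gained in each. Of 1233 alternative differences of named chains 1215 kept their direction and their call, 17 lost the call and 1 reversed. The count for sFB-protein-iPS against the ES mean rose from 2 to 4 with an offset of 16 (Col6a1 and Col16a1 lower), to 4 with median centring and to 7 in the deposited values. Against C57-mES the count rose from 2 to 4 with an offset of 16 and in the deposited values. For E14-mES against C57-mES it fell from 2 to 1 with the mean of probes. Col3a1, below background on both sides, reversed from 0.19 to -0.07 in the deposited values for sFB-protein-iPS against the ES mean. The cause of these changes was not tested.

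Leaving out each array in turn gave 16 to 17 called chains against FVB-sFB for sFB-protein-iPS and 19 to 19 for the ES mean. It gave 2 to 2 for sFB-protein-iPS against the ES mean, 3 to 3 against E14-mES, 4 to 5 against GFPoct4 and 2 to 3 against C57-mES. Among the ES groups it gave 2 to 3, 3 to 3 and 2 to 2. Without FVB-sFB arrays 3 and 4 the first comparisons called 15 and 18. With the replicate number as a block, the first 3 comparisons called 17, 19 and 2 chains, and the numbers are not shown to pair the samples: 6 of 20 arrays correlated best with their own number. Dim chains give bounds only, since the signal over background limits them.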
